A study of Mus musculus with 10 samples.

Results

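Lines of mouse embryonic stem cells labelled as lacking the nuclear step of miRNA production were compared with lines labelled as lacking a cytoplasmic step, by ribosome profiling. The nuclear side was made of the 4 libraries labelled Dgcr8 knockout or Drosha knockout, the subunits of the Microprocessor, with 2 libraries per line. The cytoplasmic side was made of the 4 libraries labelled Dicer knockout or Ago1 and Ago2 double knockout, again with 2 libraries per line. These 8 libraries were chosen by genotype label alone, out of 10 in the series, and the other 2 were wild type (WT). Both lines of a side had equal weight whatever their depth. All groups were the line E14 of 129/Ola background, made from blastocysts and grown on gelatine with serum and with LIF, which keeps stem cells from differentiating. Cycloheximide was given to stop elongation, RNase I trimmed the mRNA outside ribosomes, and Drosophila spike-ins were added to every library. The labels do not say how each line was made, how many clones it stands for, or which part of each gene was removed. Nothing in them says that replicates were separate cultures. Each p-value of the main test measures the spread between the 2 libraries of a line, which may be technical. The spread between the 2 lines of a side does not enter it. No matched mRNA libraries were analysed, so a difference in footprints includes any difference in mRNA amount, and with bulk samples fewer cells of a type and less RNA per cell cannot be told apart.

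In the nucleus Drosha, an RNase III enzyme, and Dgcr8, its RNA-binding partner, crop hairpins out of primary miRNA transcripts. In the cytoplasm Dicer trims these hairpins to duplexes and also cuts long double-stranded RNA, and Ago proteins hold 1 strand and silence mRNAs with matching sites. Some small RNAs skip the Microprocessor but still need Dicer, and the Microprocessor is known to cut hairpins inside a few mRNAs, that of Dgcr8 among them. The related miR-290 and miR-302 families, abundant in embryonic stem cells, share a seed and act on cell cycle inhibitors and other regulators.

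Total counts ran from 1854243 to 80850950 in the Microprocessor libraries and from 1754710 to 35168638 in the Dicer and Ago libraries, with 11082243 and 23731070 in WT. Levels are given as CPM, the share of a library's scaled total count. Across genes, which are not independent replicates, log2 CPM correlated with r of 0.875 to 0.928 between libraries of the Microprocessor side (median 0.898, 6 pairs) and of 0.885 to 0.952 within the Dicer and Ago side (median 0.921, 6 pairs). Between the sides r was 0.864 to 0.951 (median 0.899, 16 pairs), so the Microprocessor libraries were no closer to each other than to the other side. As line means, Drosha correlated with Dicer at 0.942 and with Ago at 0.943, and with its own partner Dgcr8 at 0.933, while Dgcr8 correlated with WT at 0.954. In the second Drosha library 227 genes were at 0, and Creb5 took 3.94% of the second Ago library.

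The targeted genes were read first, since they check the labels. Dgcr8 had 145 and 146 CPM in the Dgcr8-labelled, 169 and 197 in the Drosha, 64.5 and 76.1 in the Dicer, 74.6 and 63.5 in the Ago-labelled, and 32.7 and 33.1 in the WT libraries. Every Microprocessor library stood above every Dicer and Ago library, which in turn stood above WT, so the 2 libraries labelled Dgcr8 knockout go against their label at the level of footprints over the whole gene. They are called the Dgcr8-labelled libraries here, and every direction drawn from them carries that doubt. Drosha had 165 and 269.96 CPM in the Dgcr8-labelled, 24.3 and 34.5 in the Drosha, 229 and 215 in the Dicer, 255 and 313 in the Ago-labelled, and 177 and 178 in the WT libraries. It was low in the line labelled for it alone, and the sides overlapped. Dicer1 had 160.3 and 169 CPM in the Dgcr8-labelled, 74.4 and 169.5 in the Drosha, 15.8 and 22.1 in the Dicer, 129 and 144 in the Ago-labelled, and 122 and 124 in the WT libraries. The Dicer libraries were the lowest, and the first Drosha library was the lowest of the Microprocessor side. Ago2 had 107 and 99.8 CPM in the Dgcr8-labelled, 143 and 202 in the Drosha, 135 and 135 in the Dicer, 14.9 and 6.61 in the Ago-labelled, and 81.9 and 81.9 in the WT libraries. Both Ago libraries were the lowest. Ago1 had 24.9 and 38.3 CPM in the Dgcr8-labelled, 72.8 and 60.7 in the Drosha, 80.5 and 64.5 in the Dicer, 27.0 and 10.7 in the Ago-labelled, and 14.7 and 14.3 in the WT libraries. The first Ago library was above both WT libraries and the second below them, while both were below the Drosha and Dicer libraries. For Ago1 the first library thus goes against the double knockout label when set against WT. Both libraries of this line are called Ago-labelled beside their values.

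**Figure D1:**
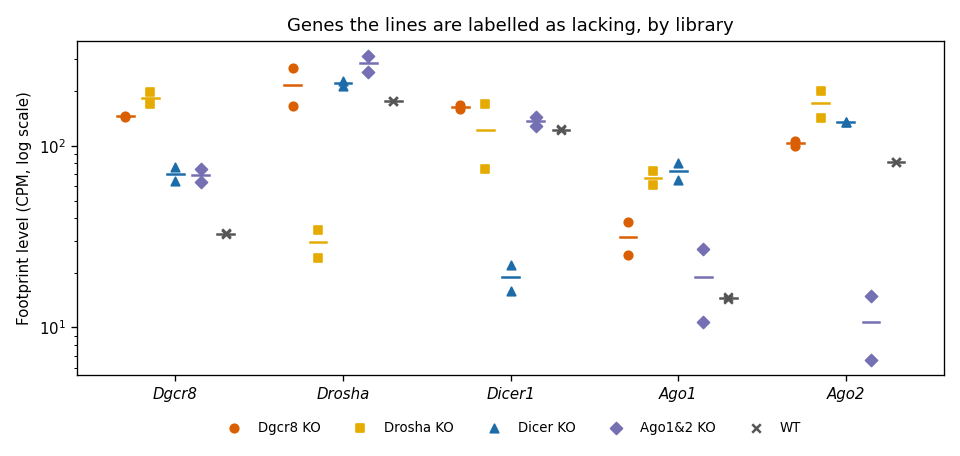
Footprint level (CPM, log scale) of the 5 genes the lines are labelled as lacking, with 1 point per library and a bar at the mean of the 2 libraries of a line. Drosha, Dicer1 and Ago2 are low in the line labelled for them, while Dgcr8 is above WT in every knockout line and highest in the 4 Microprocessor libraries.

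Drosha (log2 -1.65), Dicer1 (1.49) and Ago2 (1.82) passed the test between the sides as the labels require, and each rests on 1 line. The line labelled for each was then left out of the comparison, though its libraries stayed in the fit. By edgeR, Drosha then had a log2 difference of -0.21 (adjusted p = 0.727), Dicer1 of 0.05 (adjusted p = 0.968) and Ago2 of -0.01 (adjusted p = 0.992). Across all the alternatives tried, adjusted p for these 3 genes reached from 1.62e-08 to 0.992. Ago1 did not pass (log2 0.31, SE 0.29, adjusted p = 0.695).

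Dgcr8 is the targeted gene whose difference did not come from 1 line. It averaged 145 ± 0.568 CPM in the Dgcr8-labelled line and 183 ± 19.9 CPM in the Drosha line, against 70.3 ± 8.24 CPM in the Dicer line, 69.0 ± 7.84 CPM in the Ago-labelled line and 32.9 ± 0.235 CPM in WT (mean ± SD, n = 2 libraries per line). The side difference was log2 1.23, SE 0.18, adjusted p = 0.0275 by edgeR's quasi-likelihood test with Benjamini-Hochberg adjustment over all genes. The lines of a side did not differ detectably from each other, with log2 -0.34 between the Dgcr8-labelled and Drosha lines (adjusted p = 0.660) and 0.02 between the Dicer and Ago lines (adjusted p = 0.986). Against WT the log2 difference was 2.31 for the Microprocessor lines (adjusted p = 0.00450) and 1.08 for the Dicer and Ago lines (adjusted p = 0.0150), with the same WT libraries in both. Without the Dgcr8-labelled line the side difference was 1.40 (adjusted p = 0.108) and without the Dicer line 1.24 (adjusted p = 0.0745). Over 26 alternatives it stayed between 1.06 and 1.40, passed in 16, and had adjusted p between 7.54e-08 and 0.879.

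The Dgcr8 gene lies on the minus strand of chromosome 16 from 18253948 to 18289246 (GRCm38). An annotated miRNA gene, Mir1306, lies wholly inside the coding part of one of its exons, from 18284239 to 18284317. This hairpin is shown because it is a stem that the Microprocessor can meet within the Dgcr8 mRNA itself, with both mature miR-1306 strands in capitals (RefSeq, GRCm38.p6).
Mir1306 hairpin: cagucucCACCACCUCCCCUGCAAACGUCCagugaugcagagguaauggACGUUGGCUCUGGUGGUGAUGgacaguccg
A second annotated small RNA gene, Gm24572, lies in a non-coding part of a Dgcr8 exon from 18284550 to 18284637. Cleavage was not measured in these libraries. Among the 126 tested protein-coding genes with an annotated miRNA gene inside an exon on the same strand, Dgcr8 was the 1 that was called (1 higher, 0 lower), and their median log2 side difference was -0.12, against -0.02 for all genes tested. Genes with a miRNA in an intron alone had a median of -0.07 over 463 genes, with 0 higher and 1 lower. Of 4 tested mRNAs that have been reported as cut or bound by the Microprocessor, Dgcr8 alone passed. The median side difference of the 4 was -0.51, opposite in sign to that of Dgcr8, and 2 were positive. By edgeR 1 was higher and 2 lower at an unadjusted p under 0.05. Nfib, a transcription factor, had 3.16 to 9.50 CPM in the Microprocessor libraries and 4.71 to 21.0 CPM in the Dicer and Ago libraries (log2 -1.12, adjusted p = 0.288).

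Of 10978 genes tested, 31 differed between the sides at an adjusted p under 0.05, which is 0.282%. Of these 9 were higher (0.0820%) and 22 lower (0.200%) in the Microprocessor lines, and 1428 genes had an unadjusted p under 0.05. In 411 genes (3.74%) the 4 libraries of one side lay wholly above or below those of the other, 217 of them higher (1.98%) and 194 lower (1.77%) in the Microprocessor libraries. Among the called genes 5 of the 9 higher and 12 of the 22 lower ones had no overlap, a property that the test itself favours. For scale, 55 genes (0.501%) differed between the Dgcr8-labelled and Drosha lines, 11 higher (0.100%) and 44 lower (0.401%) in the Dgcr8-labelled line, and 60 genes (0.547%) between the Dicer and Ago lines, 36 higher (0.328%) and 24 lower (0.219%) in the Dicer line. Against WT, 87 genes (0.792%) differed in the Microprocessor lines, 57 of them higher (0.519%) and 30 lower (0.273%). In the Dicer and Ago lines 1137 (10.4%) differed, 687 of them higher (6.26%) and 450 lower (4.10%), against the same WT libraries.

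These counts moved with single libraries. Between the sides 0 genes passed edgeR's test without the second Drosha library (852 at an unadjusted p under 0.05) or without the first (813) or second (1234) Dicer library. It was 11 without either WT library, 19 without the first Dgcr8-labelled library, 14 without the first Ago library and 177 without the first Drosha library. With 4 libraries set against 4, so that the spread between lines counts as error, 0 passed (844 unadjusted), and with the line as the unit, 2 lines against 2, 0 passed by limma (545 unadjusted). In the Microprocessor lines 1 gene differed from WT once the first WT library was left out and 0 (783 unadjusted) once the second was, and leaving out other single libraries gave between 7 genes, without the second Dicer library, and 429, without the first Dgcr8-labelled library. In the Dicer and Ago lines the same WT libraries left 208 and 42 genes, and leaving out the first or second Dicer library left 459 and 644. Without the first Dgcr8-labelled library 4 genes differed between the Microprocessor lines, and without the first Dicer or the second Ago library 4 differed between the Dicer and Ago lines.

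**Figure D2:**
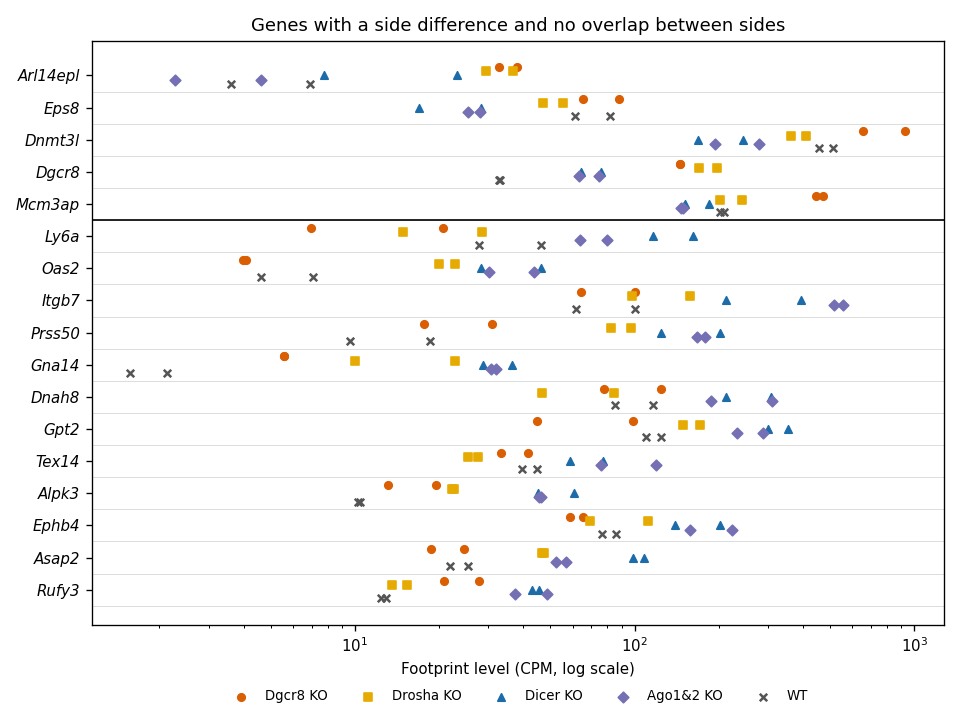
Footprint level (CPM, log scale) of the 5 higher (above the line) and 12 lower genes that passed the test and whose sides did not overlap, with 1 point per library. Both Drosha libraries lie between the Dgcr8-labelled libraries and the Dicer and Ago libraries in 7 of the 12 lower genes (Oas2, Prss50, Gna14, Gpt2, Alpk3, Ephb4 and Asap2) and in 3 of the 5 higher ones (Eps8, Dnmt3l and Mcm3ap). The choice of genes without overlap already puts the Drosha libraries on the Microprocessor side of the Dicer and Ago libraries. The share of all genes with this order was not taken.

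Besides Dgcr8, the genes higher on the Microprocessor side without overlap were Arl14epl, Eps8, Dnmt3l and Mcm3ap. Dnmt3l, the inactive partner that helps the de novo DNA methyltransferases Dnmt3a and Dnmt3b, had 658 and 927 CPM in the Dgcr8-labelled, 361 and 409.8 in the Drosha, 168 and 244 in the Dicer, 279 and 193 in the Ago-labelled, and 457 and 513 in the WT libraries. The Dgcr8-labelled libraries were highest, WT came next, then the Drosha libraries, and the Dicer and Ago libraries were the lowest (log2 1.33, SE 0.22, adjusted p = 0.0395). Dnmt3l (ENSMUSG00000000730, chromosome 10 from 78041947 to 78063622) was lower than WT in the Dicer and Ago lines (log2 -1.14, adjusted p = 0.0180) and not detectably different from WT in the Microprocessor lines (log2 0.19, adjusted p = 0.786). Eps8, an actin capping and bundling protein downstream of growth factor receptors, had 88.1 and 65.3 CPM in the Dgcr8-labelled, 47.0 and 55.5 in the Drosha, 17.0 and 28.1 in the Dicer, 28.0 and 25.4 in the Ago-labelled, and 61.3 and 81.6 in the WT libraries. Its Microprocessor and WT libraries formed one range and the Dicer and Ago libraries a lower one (log2 1.37, SE 0.23, adjusted p = 0.0395). Eps8 (ENSMUSG00000015766, chromosome 6 from 137477245 to 137654876) fell against WT in the Dicer and Ago lines (log2 -1.56, adjusted p = 0.00566).

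Arl14epl showed another order. It had 38.1 and 32.7 CPM in the Dgcr8-labelled, 29.5 and 36.7 in the Drosha, 23.1 and 7.72 in the Dicer, 4.60 and 2.28 in the Ago-labelled, and 6.91 and 3.61 in the WT libraries. The 4 Microprocessor libraries were close together and above all the others, the first Dicer library came next, and WT sat with the remaining Dicer and Ago libraries (log2 2.21, SE 0.38, adjusted p = 0.0395). Against WT, Arl14epl rose in the Microprocessor lines (log2 2.72, adjusted p = 0.0457). The second Dicer library had 14 raw counts for it, the fewest of the 8. Mcm3ap, a scaffold of the complex that links transcription to mRNA export, had 445 and 472 CPM in the Dgcr8-labelled, 202 and 242 in the Drosha, 151 and 185 in the Dicer, 146 and 149 in the Ago-labelled, and 202 and 209 in the WT libraries. The Dgcr8-labelled libraries stood well above the rest, and the Drosha libraries were near WT (log2 1.02, SE 0.18, adjusted p = 0.0395). Without the Dgcr8-labelled line its difference was 0.50 (adjusted p = 0.674), and over its 26 alternatives adjusted p ran from 9.44e-06 to 0.927.

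Of the genes of at least 20 CPM that lay higher in all 4 Microprocessor libraries but did not pass, the 7 of smallest p had adjusted p between 0.0529 and 0.0937 and log2 differences between 0.91 and 1.33. Phlda3, a p53 target that restrains Akt, had 44.2 to 66.4 CPM in the Microprocessor libraries and 14.7 to 34.2 CPM in the Dicer and Ago libraries, with WT at 47.6 and 64.3 CPM. Wdr35, a subunit of the transport particle that moves cargo within cilia, had 86.0 to 171 CPM in the Microprocessor libraries and 46.3 to 65.1 CPM in the Dicer and Ago libraries. Klhl22, an adaptor of a Cullin-3 ubiquitin ligase, had 72.8 to 107 CPM in the Microprocessor libraries and 35.9 to 60.4 CPM in the Dicer and Ago libraries. The others were Stard8, the cell surface proteoglycan Gpc1, the spliceosome helicase Dhx16 and the excision repair nuclease Ercc5.

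Among the genes lower on the Microprocessor side, Oas2 is an interferon-induced enzyme that senses double-stranded RNA and makes the second messenger of RNase L. It had 4.10 and 3.98 CPM in the Dgcr8-labelled, 20.05 and 22.7 in the Drosha, 46.5 and 28.1 in the Dicer, 43.7 and 30.2 in the Ago-labelled, and 4.61 and 7.09 in the WT libraries. The Dgcr8-labelled libraries matched WT, the Drosha libraries were in the middle, and the Dicer and Ago libraries were the highest (log2 -2.001, SE 0.28, adjusted p = 0.0236). Oas2 (ENSMUSG00000032690, chromosome 5 from 120730333 to 120749853) was higher than WT in the Dicer and Ago lines (log2 2.66, adjusted p = 0.00295), while the Microprocessor lines were not detectably different from WT (log2 0.66, adjusted p = 0.363). The Dgcr8-labelled line was below the Drosha line (log2 -2.40, adjusted p = 0.0431), so the 2 Microprocessor lines differed too. Without the Dgcr8-labelled line the side difference was -0.80 (adjusted p = 0.670), against -3.20 without the Drosha line (adjusted p = 0.00618). Over all 26 alternatives adjusted p ran from 6.78e-08 to 0.927, and the smallest raw count among the 8 libraries was 20.

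Other members of the interferon and double-stranded RNA list did not pass. Of 19 tested, 0 were higher and 1, Oas2, was lower (0 and 6 at an unadjusted p under 0.05), 2 had a positive side difference, and the list's median was -0.73 against -0.02 for all genes tested. Eif2ak2, the kinase that halts initiation when it binds double-stranded RNA, had 16.2 and 10.96 CPM in the Dgcr8-labelled, 40.6 and 35.8 in the Drosha, 49.4 and 45.2 in the Dicer, 32.9 and 46.2 in the Ago-labelled, and 25.6 and 26.5 in the WT libraries. The second Dgcr8-labelled library was the lowest and the Drosha libraries lay inside the Dicer and Ago range (log2 -0.92, adjusted p = 0.103). Parp14, an interferon-induced ADP-ribosyltransferase, had 12.5 to 44.8 CPM in the Microprocessor libraries and 22.4 to 140.2 CPM in the Dicer and Ago libraries (log2 -1.26, adjusted p = 0.0937). By line pairs the list's median was -1.41 for Dgcr8-labelled minus Dicer and -0.38 for Dgcr8-labelled minus Ago, and -0.41 for Drosha minus Dicer and 0.05 for Drosha minus Ago.

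The largest fall without overlap was that of Ly6a, the surface antigen Sca-1. Ly6a had 20.6 and 6.97 CPM in the Dgcr8-labelled, 28.5 and 14.9 in the Drosha, 161 and 116 in the Dicer, 79.7 and 63.8 in the Ago-labelled, and 46.3 and 27.7 in the WT libraries. The replicates of the Dgcr8-labelled line lay far apart, yet the lowest Dicer and Ago library was above the highest Microprocessor library (log2 -2.51, SE 0.35, adjusted p = 0.0236). Itgb7, the integrin beta subunit that pairs with alpha 4 and alpha E, had 64.3 and 101 CPM in the Dgcr8-labelled, 157 and 98.3 in the Drosha, 392 and 212 in the Dicer, 555 and 519 in the Ago-labelled, and 101 and 61.9 in the WT libraries. Its Microprocessor libraries overlapped WT and the Dicer and Ago libraries lay above both (log2 -1.98, SE 0.28, adjusted p = 0.0236). Both genes lie on chromosome 15, Ly6a from 74994877 to 74998031 (ENSMUSG00000075602) and Itgb7 from 102215995 to 102231944 (ENSMUSG00000001281). Against WT, Itgb7 rose in the Dicer and Ago lines (log2 2.31, adjusted p = 0.00423), and Ly6a missed the threshold there (log2 1.44, adjusted p = 0.0539).

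Prss50, a protease of testis, had 30.9 and 17.7 CPM in the Dgcr8-labelled, 97.1 and 82.6 in the Drosha, 202 and 124 in the Dicer, 167 and 178 in the Ago-labelled, and 18.5 and 9.62 in the WT libraries. The Dgcr8-labelled libraries were near WT, the Drosha libraries were above them, and the Dicer and Ago libraries were the highest (log2 -1.84, SE 0.28, adjusted p = 0.0295). Tex14, which holds open the bridges between germ cells, had 41.6 and 33.3 CPM in the Dgcr8-labelled, 25.3 and 27.5 in the Drosha, 58.7 and 77.2 in the Dicer, 75.6 and 119 in the Ago-labelled, and 39.5 and 44.9 in the WT libraries. Here the Drosha libraries were the lowest of all and WT lay with the Dgcr8-labelled ones (log2 -1.37, SE 0.22, adjusted p = 0.0395). Dnah8, a dynein heavy chain of the sperm flagellum, had 46.7 to 124 CPM in the Microprocessor libraries and 187 to 309.9 CPM in the Dicer and Ago libraries (log2 -1.64, SE 0.28, adjusted p = 0.0395). The germline list had 1 of 15 tested genes higher (Dnmt3l), 1 lower (Tex14), 10 with a positive side difference and a median of 0.10.

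Gna14, an alpha subunit of G proteins that couple to phospholipase C, had 5.57 and 5.58 CPM in the Dgcr8-labelled, 10.02 and 22.7 in the Drosha, 28.7 and 36.4 in the Dicer, 31.9 and 30.8 in the Ago-labelled, and 2.12 and 1.58 in the WT libraries. It was above WT in all 8 knockout libraries, and above the Microprocessor libraries in all 4 Dicer and Ago libraries (log2 -1.73, SE 0.29, adjusted p = 0.0395). Gna14 rose against WT on both sides, by log2 2.39 in the Microprocessor lines (adjusted p = 0.0395) and 4.12 in the Dicer and Ago lines (adjusted p = 0.00111). Gpt2, the mitochondrial alanine transaminase and a target of the stress factor Atf4, had 99.1 and 44.6 CPM in the Dgcr8-labelled, 149 and 171 in the Drosha, 353 and 299 in the Dicer, 289 and 232 in the Ago-labelled, and 109 and 124 in the WT libraries. The second Dgcr8-labelled library was the lowest and the Microprocessor range held both WT libraries (log2 -1.44, SE 0.25, adjusted p = 0.0395). It was the 1 called gene of 31 tested in the integrated stress response list, whose median was -0.36 with 5 positive members.

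The remaining lower genes without overlap were Alpk3, Ephb4, Asap2 and Rufy3. Alpk3, an alpha kinase known from heart muscle, had 13.1 to 22.7 CPM in the Microprocessor libraries and 45.1 to 60.7 CPM in the Dicer and Ago libraries (log2 -1.35, SE 0.22, adjusted p = 0.0395). Ephb4, the receptor of ephrin-B2, had 59.0 to 111 CPM in the Microprocessor libraries and 139 to 222 CPM in the Dicer and Ago libraries (log2 -1.27, SE 0.23, adjusted p = 0.0480). Asap2, a GTPase-activating protein for Arf, had 24.5 and 18.7 CPM in the Dgcr8-labelled, 47.5 and 46.7 in the Drosha, 99.1 and 108 in the Dicer, 52.2 and 56.9 in the Ago-labelled, and 21.9 and 25.3 in the WT libraries. The Drosha libraries reached within 5 CPM of the Ago libraries, and the Dicer libraries were highest (log2 -1.23, SE 0.19, adjusted p = 0.0335). Rufy3, an adaptor of endosomes and lysosomes studied in neurons, had 20.8 and 27.7 CPM in the Dgcr8-labelled, 15.3 and 13.5 in the Drosha, 45.5 and 43.0 in the Dicer, 37.3 and 48.6 in the Ago-labelled, and 12.4 and 12.9 in the WT libraries. The Drosha libraries were the lowest of the knockouts and close to WT (log2 -1.23, SE 0.22, adjusted p = 0.0461).

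Of the called genes whose sides overlapped, some are named here after their values were seen. Msln, the surface protein mesothelin, had 6.51 and 13.7 CPM in the Dgcr8-labelled, 349.8 and 154 in the Drosha, 496 and 367 in the Dicer, 150.4 and 89.8 in the Ago-labelled, and 4.43 and 4.11 in the WT libraries. Hhip, a decoy that binds Hedgehog ligands, had 2.23 and 5.98 CPM in the Dgcr8-labelled, 84.4 and 31.5 in the Drosha, 237 and 116 in the Dicer, 115 and 42.0 in the Ago-labelled, and 4.79 and 3.32 in the WT libraries. Both had Drosha libraries within or beside the Dicer and Ago range and Dgcr8-labelled libraries near WT, and for both the Dgcr8-labelled line was below the Drosha line (Msln log2 -4.70, adjusted p = 0.00846, Hhip log2 -3.99, adjusted p = 0.0440). Grin1, a subunit of NMDA receptors, and Tbc1d8b, a protein with a Rab GTPase-activating domain, had the same order (Grin1 log2 -2.35, adjusted p = 0.0238, Tbc1d8b log2 -2.33, adjusted p = 0.0494). Krt17 and Dock2 followed the Dicer line instead. Krt17, a keratin, had 10.97 and 25.5 CPM in the Dgcr8-labelled, 55.4 and 53.3 in the Drosha, 242 and 221 in the Dicer, 49.9 and 57.5 in the Ago-labelled, and 9.86 and 8.17 in the WT libraries. Its Dicer libraries were the highest and exceeded the Ago libraries (log2 2.11, adjusted p = 0.0351), as did those of Dock2, an activator of Rac (log2 2.71, adjusted p = 0.0402).

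Uty, a relative of the demethylase gene Kdm6a on the Y chromosome, was called with overlap (log2 -2.79, SE 0.43, adjusted p = 0.0304). It had 1.11 and 0.399 CPM in the Dgcr8-labelled, 45.4 and 27.5 in the Drosha, 57.7 and 33.6 in the Dicer, 44.2 and 26.8 in the Ago-labelled, and 24.4 and 7.38 in the WT libraries. The Dgcr8-labelled libraries were near 0 while the Drosha libraries matched the Dicer and Ago libraries, and WT lay between. In all 3 tested genes of the Y chromosome list the Dgcr8-labelled libraries were lowest and WT came next, with summed levels of 14.9 and 0.598 CPM in the Dgcr8-labelled libraries, 239 and 176 in the Drosha, 305 and 284 in the Dicer, 231 and 208 in the Ago-labelled, and 94.0 and 41.4 CPM in WT. Over the 5 tested genes that lie on that chromosome the median side difference was -2.49. The part that the state of the Y chromosome has in the other differences between the sides was not tested.

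**Figure D3:**
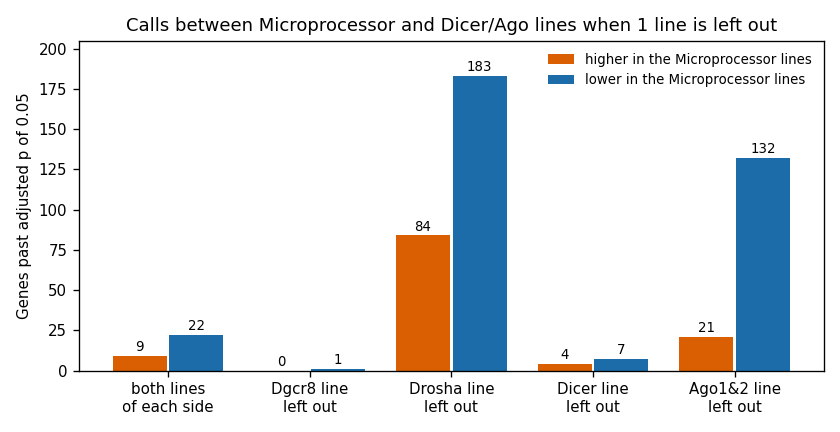
Number of genes past an adjusted p of 0.05 between the sides, higher (left bar) and lower (right bar) in the Microprocessor lines. Counts are given with both lines of each side and with 1 line left out of the comparison, its libraries staying in the fit. The total is 31 with all lines, 1 without the Dgcr8-labelled line, 267 without the Drosha line, 11 without the Dicer line and 153 without the Ago line.

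How far a line carried the calls was examined by leaving each in turn out of the comparison, alternatives chosen after seeing the data. The libraries of that line stayed in the fit, where they still entered the scaling and the estimate of spread. Without the Dgcr8-labelled line, so that the Drosha line alone stood for the nuclear side, 1 gene (0.00911%) was called, and that gene was Drosha; 772 genes had an unadjusted p under 0.05. Without the Drosha line 267 genes (2.43%) were called, 27 of them among the 31. Without the Dicer line 11 genes (0.100%) were called, 8 of them among the 31, and without the Ago line 153 (1.39%), 24 of them among the 31. Without the Dgcr8-labelled line the log2 differences of the 17 called genes without overlap were 0.50 to 2.17 in the 5 higher and -2.22 to -0.67 in the 12 lower genes, with adjusted p from 0.108 to 0.674, so none of the 17 passed. Without the Drosha line 5 of the 5 higher and 9 of the 12 lower genes passed. Among all 31, the Dgcr8-labelled line was further from the Dicer and Ago mean than the Drosha line in 7 of 9 higher and 18 of 22 lower genes. The WT mean was nearer to the Microprocessor mean in 6 of 9 and 20 of 22. These counts include the targeted genes Drosha, Dicer1 and Ago2. The matching shares over all genes tested were not taken, so the pattern cannot be called particular to the called genes.

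Targets known for miR-290 and its relatives come next, since these miRNAs need the proteins of both sides. The 3p arms of the miR-290 cluster on chromosome 7 are shown with let-7a, from a family with another seed, to make the shared seed (bases 2 to 8, capitals) visible (RefSeq, GRCm38.p6).
miR-291a-3p: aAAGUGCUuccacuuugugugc
miR-294-3p: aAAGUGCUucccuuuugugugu
miR-295-3p: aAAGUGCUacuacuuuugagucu
let-7a-5p: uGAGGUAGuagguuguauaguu
Of 22 tested targets in the list 0 were called by edgeR (1 higher and 10 lower at an unadjusted p under 0.05), 6 had a positive side difference, and the median was -0.70 against -0.02 for all genes tested. Against WT, 0 were higher in the Microprocessor lines (median 0.46, with 0.519% of all genes higher) and 7 in the Dicer and Ago lines (median 1.00, with 6.26% of all genes higher), with none lower in either. Trps1, a GATA-type repressor, had 15.4 and 19.7 CPM in the Dgcr8-labelled, 60.1 and 43.7 in the Drosha, 85.6 and 57.9 in the Dicer, 67.3 and 56.5 in the Ago-labelled, and 16.6 and 15.8 in the WT libraries. The Dgcr8-labelled libraries matched WT and the first Drosha library was inside the Dicer and Ago range (log2 -1.15, adjusted p = 0.0562). Cdkn1a, the cell cycle inhibitor p21, had 38.7 and 35.5 CPM in the Dgcr8-labelled, 42.7 and 39.3 in the Drosha, 75.5 and 66.7 in the Dicer, 45.8 and 79.1 in the Ago-labelled, and 34.9 and 54.8 in the WT libraries. All 4 Microprocessor libraries were below the Dicer and Ago libraries and within the WT range, but the test was not passed (log2 -0.77, SE 0.24, adjusted p = 0.186). Rb1, the retinoblastoma protein, ran the other way with 26.4 to 40.2 CPM in the Microprocessor libraries and 16.7 to 21.4 CPM in the Dicer and Ago libraries (log2 0.75, SE 0.23, adjusted p = 0.183). By line pairs the median of the list was -1.10 for Dgcr8-labelled minus Dicer and -0.65 for Dgcr8-labelled minus Ago, and -0.52 for Drosha minus Dicer and -0.02 for Drosha minus Ago.

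The same was read from sequence. The 7 bases AGCACTT, the reverse complement of the shared seed, were searched on the transcript strand in 3' UTRs of 10788 tested genes, and 1695 (15.7%) held them. Genes with 2 or more matches had a median side difference of -0.15 (315 genes, 0 higher and 1 lower), genes with 1 match -0.10 (1380 genes, 1 higher and 2 lower), and genes with none 0.00 (9093 genes, 8 higher and 19 lower). Against WT the medians for 2 or more matches were 0.11 in the Microprocessor lines and 0.25 in the Dicer and Ago lines, and between the Dgcr8-labelled and Drosha lines -0.15. A match is a run of letters and not a measured site. Genes with a let-7 match had a median of -0.05 over 1017 genes, and the list of 22 tested let-7 targets one of 0.17 with 0 called (5 higher and 0 lower unadjusted).

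**Figure D4:**
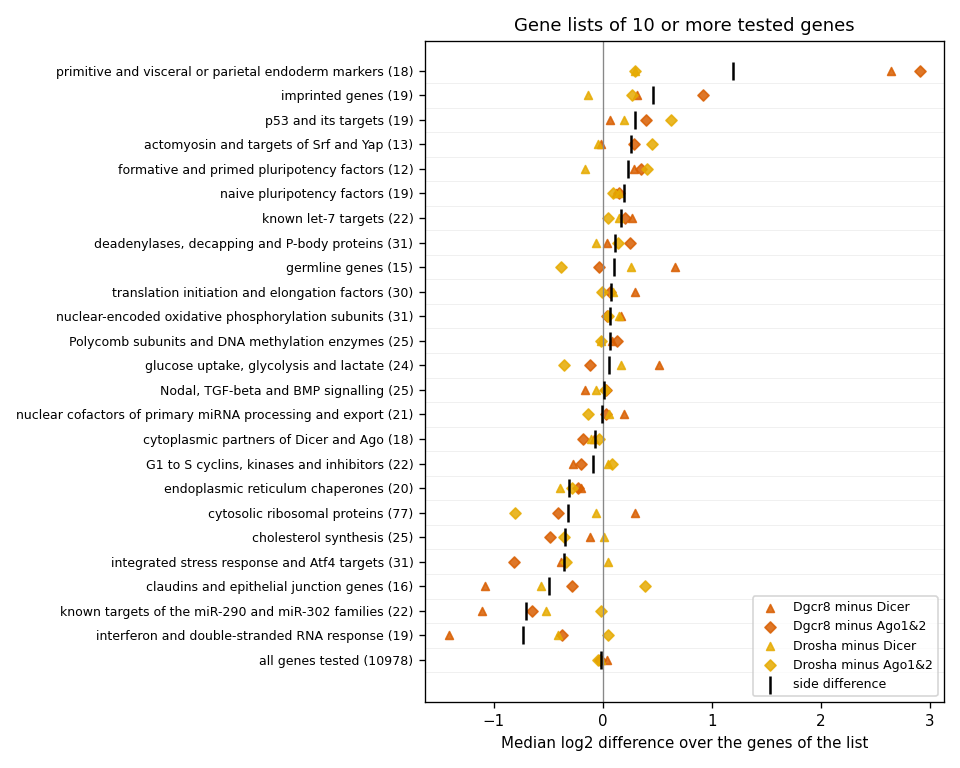
Median log2 difference of each gene list with at least 10 tested genes (number in brackets), for the side difference (black bar) and for each Microprocessor line minus each Dicer or Ago line (symbols). The endoderm list stands at 1.20 for the sides, but its 2 Drosha medians lie near 0.3, and all genes tested lie near 0.

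Of the 32 gene lists, 7 held a called gene and 25 held none. None of the proteins listed as working beside the deleted ones was called. Among 21 nuclear cofactors of primary miRNA processing and export 0 were called by edgeR (0 at an unadjusted p under 0.05), with a median of -0.01, and among 18 cytoplasmic partners of Dicer and Ago 0 were called (1 higher and 3 lower unadjusted), with a median of -0.07. Tnrc6b, the scaffold that links Ago to deadenylases, had 61.0 and 65.3 CPM in the Dgcr8-labelled, 147 and 122 in the Drosha, 158 and 148 in the Dicer, 154 and 149 in the Ago-labelled, and 47.0 and 41.7 in the WT libraries. It was below the Dicer and Ago range in all 4 Microprocessor libraries, by little in the first Drosha library, and missed the threshold (log2 -0.73, SE 0.18, adjusted p = 0.104). Lin28a, which blocks let-7 maturation, had 14.2 to 127 CPM in the Microprocessor libraries and 2.77 to 49.1 CPM in the Dicer and Ago libraries and differed mostly within the sides (log2 1.16, adjusted p = 0.295). Deadenylation and decapping proteins had a median of 0.11 over 31 genes with 0 called (1 higher and 1 lower unadjusted).

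The labelled cell type was checked through its markers. Summed levels of 19 naive pluripotency factors were 6782 to 7887 CPM in the Microprocessor libraries, 6420 to 8065 CPM in the Dicer and Ago libraries, and 7216 and 7470 CPM in WT. Between the sides 0 of the 19 were called by edgeR (4 higher and 2 lower at an unadjusted p under 0.05). Nr5a2, a nuclear receptor that binds the Oct4 gene, had 50.1 to 115 CPM in the Microprocessor libraries and 34.0 to 46.7 CPM in the Dicer and Ago libraries (log2 0.88, SE 0.22, adjusted p = 0.119), with WT at 90.4 and 130.1 CPM. Klf4, a factor of naive pluripotency, had 46.8 to 71.0 CPM in the Microprocessor libraries and 17.4 to 60.4 CPM in the Dicer and Ago libraries (log2 0.85, SE 0.24, adjusted p = 0.158), with WT at 135 and 158 CPM. Against WT, 1 of the 19 was higher and 1 lower in the Microprocessor lines (all genes 0.519% and 0.273%), and 1 was higher and 3 lower in the Dicer and Ago lines (6.26% and 4.10%). Klf4 fell on both sides (log2 -1.41, adjusted p = 0.0461 in the Microprocessor lines, log2 -2.26, adjusted p = 0.00231 in the Dicer and Ago lines), and Nr5a2 fell in the Dicer and Ago lines (log2 -1.41, adjusted p = 0.00756). The formative and primed list had 0 of 12 called (3 higher and 2 lower unadjusted) and a median of 0.24.

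Markers of the endoderm that arises beside the epiblast were uneven across libraries. By edgeR 0 of 18 tested were called (9 higher and 0 lower at an unadjusted p under 0.05), 16 had a positive side difference and the median was 1.20. Their summed level was 12330 and 4748 CPM in the Dgcr8-labelled, 6260 and 4658 in the Drosha, 6544 and 4389 in the Dicer, 6815 and 4397 in the Ago-labelled, and 18160 and 20430 CPM in the WT libraries. The first Dgcr8-labelled library thus lay between WT and the other 7 knockout libraries, and the other 7 knockout libraries shared one range. Against WT, 3 of the 18 were lower in the Microprocessor lines (median -2.78, with 0.273% of all genes lower). In the Dicer and Ago lines 15 were lower (median -4.49, with 4.10% of all genes lower), and none was higher on either side. Dab2, an endocytic adaptor of endoderm, had 61.2 and 2.79 CPM in the Dgcr8-labelled, 1.06 and 9.61 in the Drosha, 1.38 and 1.10 in the Dicer, 1.06 and 0.415 in the Ago-labelled, and 95.6 and 162 in the WT libraries. Gata6, the factor that specifies this lineage, had 15.2 and 1.59 CPM in the Dgcr8-labelled, 0 and 4.37 in the Drosha, 0 and 0 in the Dicer, 0 and 0.415 in the Ago-labelled, and 17.5 and 46.6 in the WT libraries. It was at 0 in 1 Drosha library and in 3 of the 4 Dicer and Ago libraries. The part of these markers in the differences between the sides, and in those from WT, was not tested.

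Trophectoderm keratins followed the Dicer line. Summed over 6 tested markers the level was 171 and 237 CPM in the Dgcr8-labelled, 396 and 399 in the Drosha, 878 and 645 in the Dicer, 199 and 223 in the Ago-labelled, and 164 and 196 CPM in the WT libraries. Between the sides 0 of the 6 passed edgeR's test (0 higher and 2 lower unadjusted), and 3 were higher in the Dicer than in the Ago line, against 0.328% of all genes. The fibroblast, neural and mesoderm lists had 5, 4 and 1 tested genes with 0 called and medians of -0.10, -0.60 and -0.24 (1 higher in the first and 1 lower in the second, unadjusted). The 2 tested genes of the 2-cell-like state, Tmem92 and Zscan4d, were near 0 in the Dgcr8-labelled libraries and in WT. Tmem92 had 0.376 and 0.598 CPM in the Dgcr8-labelled, 21.1 and 21.4 in the Drosha, 14.0 and 8.27 in the Dicer, 38.3 and 9.66 in the Ago-labelled, and 1.11 and 0.332 in the WT libraries. The Drosha libraries lay within the Dicer and Ago range, the side difference missed the threshold (adjusted p = 0.0737) and the Dgcr8-labelled line was below the Drosha line (log2 -5.63, adjusted p = 0.0238). Reads of the Zscan4 copies cannot be told apart in these counts.

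Imprinted genes spread in both directions, with 0 of 19 called by edgeR (5 higher and 2 lower unadjusted) and a median of 0.46. Grb10, a brake on insulin and growth factor signalling, had 34.8 and 9.76 CPM in the Dgcr8-labelled, 166 and 370.01 in the Drosha, 206 and 190.3 in the Dicer, 283 and 258 in the Ago-labelled, and 472 and 576 in the WT libraries. It was lowest in the Dgcr8-labelled libraries and below both WT libraries in all 8 knockout libraries, the side difference missed the threshold (log2 -1.56, SE 0.35, adjusted p = 0.0937), and the 2 Microprocessor lines differed (log2 -3.54, adjusted p = 0.0238). Mest, which is expressed from the paternal allele, had 184 and 299 CPM in the Dgcr8-labelled, 40.1 and 66.0 in the Drosha, 55.2 and 88.8 in the Dicer, 8.77 and 0.474 in the Ago-labelled, and 71.9 and 43.0 in the WT libraries. The Ago libraries were the lowest and the Dgcr8-labelled the highest (log2 2.68, SE 0.61, adjusted p = 0.0937). Among 19 p53 targets 0 were called (6 higher and 2 lower unadjusted), with a median of 0.30. A positive difference was seen in 15 (78.9%, against 48.2% of all genes). In all 4 Microprocessor libraries 4 lay higher and 1 lower than in every Dicer and Ago library, against 1.98% and 1.77% of all genes. Mdm2, the ubiquitin ligase of p53, had 127 to 219.6 CPM in the Microprocessor libraries and 50.6 to 104 CPM in the Dicer and Ago libraries (log2 1.01, SE 0.26, adjusted p = 0.119).

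Most lists for the machinery of the cell held 0 called genes by edgeR. Cytosolic ribosomal proteins had a median of -0.32 over 77 genes with 20 positive (1 higher and 7 lower at an unadjusted p under 0.05), but the line pairs did not share a sign, at 0.30 for Dgcr8-labelled minus Dicer, -0.41 for Dgcr8-labelled minus Ago, -0.06 for Drosha minus Dicer and -0.80 for Drosha minus Ago. Initiation and elongation factors had a median of 0.07 over 30 genes (1 higher and 2 lower unadjusted) and oxidative phosphorylation subunits one of 0.07 over 31 (0 and 0). Endoplasmic reticulum chaperones stood at -0.31 over 20 genes with 1 positive (0 higher and 2 lower unadjusted), cholesterol synthesis at -0.35 over 25 (0 and 4) and epithelial junction genes at -0.49 over 16 (0 and 5). Glycolysis (0.06 over 24 genes), Nodal, TGF-beta and BMP signalling (0.01 over 25), G1 to S regulators (-0.09 over 22), and actomyosin with Srf and Yap targets (0.26 over 13) lay nearer to the median of all genes. Polycomb and DNA methylation genes had 1 of 25 called, Dnmt3l, and a median of 0.07.

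**Figure D5:**
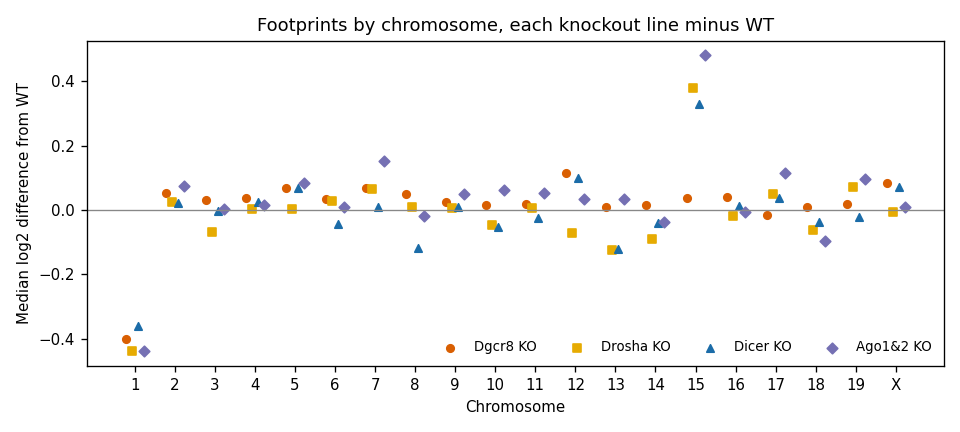
Median log2 difference from WT over the tested genes of each chromosome, with 1 symbol per knockout line; the Y chromosome, with 5 genes, is not drawn. Chromosome 1 lies near -0.4 in all 4 lines, and chromosome 15 lies at 0.33 to 0.48 in the Drosha, Dicer and Ago lines but at 0.04 in the Dgcr8-labelled line.

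Median levels also varied by chromosome. On chromosome 15 the median difference from WT was 0.04 in the Dgcr8-labelled line and 0.38 in the Drosha line, against 0.33 in the Dicer line and 0.48 in the Ago line. Between the sides its 452 tested genes had a median of -0.18 with 142 positive, the lowest median of any chromosome but Y. Of these 452 genes 1 was called higher (Ago2) and 3 lower (Drosha, Ly6a and Itgb7), against 0.0820% and 0.200% of all genes tested. Ago2 and Drosha are targeted genes, and the difference of each rests on the line labelled for it. Trps1 and Tnrc6b, given by values above and not called, also lie on chromosome 15. The part of the chromosome's shift in the differences of all these genes was not tested. On chromosome 1 all 4 lines were about equally low against WT, and between the sides its median was 0.01.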

How the data were processed

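Whole-number counts of footprint reads per gene, not normalized, were deposited by the authors as 1 table with 1 column per library. Trimmomatic and Bowtie2, and the builds mm10 (GRCm38) for mouse and dm6 (BDGP6) for Drosophila, are named per the submitters' processing notes. The counting tool, annotation and strand setting are not given in the sources used here, so overlapping or antisense genes and close paralogs cannot be told apart. Replicate numbers in the Ago columns differ from those in the sample titles, and those of the titles were kept. Spike-in counts were not analysed here.

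All 11011 gene identifiers matched the GENCODE M21 annotation, which also gave coordinates and 3' UTRs, and 16 symbols turned into dates were restored. In R 4.3.3 with edgeR 4.0.16, TMM set the library sizes, filterByExpr dropped 33 genes and kept 10978, and 5 group means were estimated over the 10 libraries by quasi-likelihood (5 residual degrees of freedom, median prior 6.69, biological coefficient of variation 0.306). Contrasts of group means were tested 2-sided with Benjamini-Hochberg adjustment at 0.05, and SE is the log2 difference over the square root of F. The procedure was tested on simulated data, where it called 33 of 100 genes changed 2-fold, 91 of 100 changed 4-fold, and 11 unchanged genes. Both lines of a side had the same simulated mean, so differences between lines were not covered. Alternatives included limma 3.58.1 (voom) and DESeq2 1.42.0.

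Named were the targeted genes, up to 12 genes per direction of at least 20 CPM with no overlap between sides, and per list up to 4 called genes or the 2 of smallest p. Other genes given by values from the lists or called with overlap were picked after their values were seen. The members and lists were chosen with earlier results of these data known. PCR copies are not independent molecules, so 3 counts, the floor of 0.0371 to 1.71 CPM per library, covers counting error only.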

Additional observations from a re-analysis of the deposited data

Results flagged for a closer look

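In 172 groups of 4 libraries, over the 86 genes that were called or chosen to be named, 10 held a library far from the other 3 of its side, where chance flags about 1 in 20 groups. In the Microprocessor libraries these were Dicer1 at 74.4 CPM in the first Drosha library, Phlda3 at 66.4 CPM in the second, and Dab2 at 61.2 CPM in the first Dgcr8-labelled library. In the Dicer libraries they were Mcm3ap at 185 CPM and Alpk3 at 60.7 CPM, both in the second. In the first Ago library they were Zscan4d at 32.9 CPM, Eif2s3y at 74.1 CPM and Gm21818 at 42.2 CPM, and in the second Gata6 at 0.415 CPM and Rps23 at 223 CPM.

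For 21 of these genes the lines of one side differed by edgeR's test of that difference. The Dgcr8-labelled minus Drosha difference was log2 2.88 for Drosha and negative for the other 10 of its 11 genes, at -2.40 for Oas2, -5.63 for Tmem92, -2.75 for Myh9, -3.54 for Grb10, -5.27 for Uty, -2.33 for Tbc1d8b, -4.70 for Msln, -3.99 for Hhip, -2.35 for Grin1 and -5.27 for Gm21818. The Dicer minus Ago difference was log2 3.66 for Ago2, 2.62 for Krt19, 3.31 for Krt8, 2.00 for Cldn7, 2.11 for Krt17 and 2.71 for Dock2. It was -2.88 for Dicer1, -3.30 for Fbln2, -2.22 for Ncam1 and -3.06 for Tro.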

How the results depend on the processing

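The count of 31 genes between the sides stayed within 1.5 times itself in 7 of 26 alternatives, with DESeq2's size factors (33), total-count scaling (30), voom (35), no filter (31) and a 20 CPM filter (24) among them. It was 362 by DESeq2's Wald test, 51 with libraries thinned to the shallowest, 11 with the 8 knockout libraries alone, and 0 with 4 libraries set against 4 without line means (844 at an unadjusted p under 0.05 by edgeR) or with 2 lines against 2 (545 by limma). Chosen after seeing the data were comparisons without the Dgcr8-labelled line (1), the Drosha line (267), the Dicer line (11) and the Ago line (153). In these the libraries of the line stayed in the fit and only its mean was left out of the contrast. Leaving out 1 library at a time gave 0 to 177 genes, with 0 without the second Drosha or either Dicer library, 11 without either WT library and 177 without the first Drosha library. DESeq2's Wald test called 627 genes for Microprocessor lines minus WT, 1833 for Dicer and Ago lines minus WT, 310 for Dgcr8 minus Drosha and 378 for Dicer minus Ago, and single libraries left out gave 0 to 429 (0 and 1 without a WT library), 42 to 1316 (42 and 208 without a WT library), 4 to 77 and 4 to 157.

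Same-numbered libraries deviated together weakly, with r of 0.061 to 0.287 over 10 pairs of groups and 9 over 0.1. The labels name no shared origin and 1 pair was below 0.1, so a pairing was not established and the values reported are without a block. The replicate block by titles gave 206 genes between the sides (485 by the numbers in the columns), 492 and 1847 against WT for the 2 sides, and 175 and 212 within them.

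Side differences changed sign for Ago1 (-0.24 without the Drosha and -0.67 without the Ago line), Ago2 (-0.0133 without the Ago line), Ncam1 (0.22 without the Ago line), Krt19 (0.28) and Krt8 (0.87) without the Dicer line, and Fbln2 (-0.88 without the Dicer line, -0.00144 with 4 libraries against 4). Without the Dgcr8-labelled line they did so for Lin28a (-0.0156), Tmem92 (0.36), Myh9 (0.19) and Grb10 (0.21). Kdr was at -1.08 without the second and 0.13 without the first Drosha library, 0.26 without the first Dicer library, 0.21 without the Dgcr8-labelled and 0.77 without the Ago line. The causes were not tested. The shallowest libraries, at 1754710 and 1854243 counts, limit what can be seen for genes of a few CPM.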
